A study of Rattus norvegicus with 151 samples.

Results

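The kidney response to low oral doses of PPH was examined by setting the rats given 1, 10 or 100 mg/kg together against the rats given vehicle alone. PPH is propylene glycol phenyl ether, a glycol ether solvent. The kidneys of male Harlan Sprague-Dawley rats aged 6-8 weeks were profiled after 5 consecutive daily gavages, on 1 Affymetrix expression array per kidney sample. The tested arrays were 12, with 4 at each of 1, 10 and 100 mg/kg, and the 5 arrays of the corn oil vehicle group of the PPH set, at 0 mg/kg, were their reference. Together they were 17 of the 151 arrays of the series, which also covers the liver, 500 and 1000 mg/kg PPH, and MCHM and crude MCHM, each with a vehicle group of its own. Arrays were chosen by tissue, chemical and dose, and no measured value entered the choice. All rats, vehicle included, received the gavage, so an effect of gavage itself cannot be seen here. Each rat gave liver and kidneys, and the numbers in the labels were taken to name the rats (PPH-214 and the like). Litter, cage and array run were not given in the sources used here.

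The kidney takes up, conjugates and excretes foreign organic acids mainly in the proximal tubule, whose cells are rich in mitochondria, fatty acid oxidation enzymes and organic ion transporters. Glycol ethers are broken down by oxidation and by conjugation to sulfate or glucuronide, and their products leave in the urine. Tubule cells divide slowly in the adult, so messenger RNA of cell division genes comes from a small share of the kidney's cells.

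The ranges of the quality measures overlapped between low-dose and vehicle arrays, but those of the array medians did so in few arrays. Each of the 17 arrays correlated with the other kidney arrays of the whole series at a median r between 0.9895 and 0.9932. The array medians lay between 5.3498 and 5.3741 log2 units in the 12 low-dose arrays, against 5.3488 to 5.3531 in the 5 vehicle arrays. Only the low-dose arrays of rats PPH-214 (5.3528) and PPH-215 (5.3498) lay within the vehicle range, and the others were above it. The beta-actin 5' minus 3' difference, a sign of RNA integrity, ranged between -3.16 and -2.34 (median -2.47) in the 12 low-dose arrays, against -3.07 to -2.34 (median -2.82) in the 5 vehicle arrays. All 17 arrays carried kidney markers, with Slc34a1, the sodium-phosphate transporter of the proximal tubule, at 13.27 to 13.75 log2 units, against at most 5.68 in any liver array. The liver's albumin gene Alb was between 4.15 and 6.84 log2 units in the kidneys, against at least 14.5 in the livers. These are whole-kidney samples, in which fewer cells of a type and less RNA per cell cannot be told apart.

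Promoters of 4 cell division genes are shown because all 26 tested cell cycle genes had a lower mean in low-dose than in vehicle kidneys. Ect2 was among the genes with the lowest p in the pooled comparison, and Cdk1, Mki67 and Top2a are the first 3 members of the cell cycle list. The sequences are RefSeq promoters of the rat build GRCr8, from 250 bases before to 50 bases after the start of the gene, written 5′ to 3′. Capitals mark 2 motifs known from promoters of mitotic genes, the core of the cell cycle homology region, TTTGAA, and the CCAAT box, each on either strand (TTCAAA and ATTGG on the other one).
Ect2 (chr2:111966577-111966876, minus strand): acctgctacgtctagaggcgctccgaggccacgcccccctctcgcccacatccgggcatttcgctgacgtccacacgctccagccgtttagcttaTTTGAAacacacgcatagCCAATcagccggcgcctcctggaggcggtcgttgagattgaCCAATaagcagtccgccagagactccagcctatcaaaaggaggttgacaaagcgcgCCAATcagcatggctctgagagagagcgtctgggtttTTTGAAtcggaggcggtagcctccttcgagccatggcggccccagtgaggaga
Cdk1 (chr20:19265043-19265342, plus strand): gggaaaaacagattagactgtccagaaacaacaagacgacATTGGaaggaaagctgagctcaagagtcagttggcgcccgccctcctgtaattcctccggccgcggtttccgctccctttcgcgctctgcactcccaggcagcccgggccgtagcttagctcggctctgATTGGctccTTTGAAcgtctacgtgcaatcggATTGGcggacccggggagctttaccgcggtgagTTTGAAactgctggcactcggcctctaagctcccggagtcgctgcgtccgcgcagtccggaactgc
Mki67 (chr1:199952544-199952843, minus strand): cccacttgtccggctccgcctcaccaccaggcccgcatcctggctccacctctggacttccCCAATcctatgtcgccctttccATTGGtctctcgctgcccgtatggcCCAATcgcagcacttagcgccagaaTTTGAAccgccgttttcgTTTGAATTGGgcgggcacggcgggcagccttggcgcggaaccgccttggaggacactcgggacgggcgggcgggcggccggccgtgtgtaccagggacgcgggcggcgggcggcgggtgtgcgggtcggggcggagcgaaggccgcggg
Top2a (chr10:84473044-84473343, minus strand): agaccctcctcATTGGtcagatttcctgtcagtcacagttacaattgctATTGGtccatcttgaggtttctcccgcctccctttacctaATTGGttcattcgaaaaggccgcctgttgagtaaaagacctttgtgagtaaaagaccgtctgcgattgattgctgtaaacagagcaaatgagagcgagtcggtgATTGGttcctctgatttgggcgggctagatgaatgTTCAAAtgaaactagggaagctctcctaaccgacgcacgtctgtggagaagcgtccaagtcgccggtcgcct
In Mki67 1 copy of each motif overlaps the other. Of 33469 rat promoters of the same length, 18.3% held TTTGAA, 37.5% held CCAAT and 7.41% held both. Of the 23 cell cycle genes with a promoter, 11 held TTTGAA, 18 held CCAAT and 9 held both. A match describes the letters of these windows only.

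No gene differed between pooled low PPH and vehicle at an adjusted p under 0.05. Of 11264 genes tested with limma and Benjamini-Hochberg adjustment, 0 were called (0%), and the smallest adjusted p was 0.147, for Vkorc1l1. An unadjusted p under 0.05 was reached by 892 genes (7.92%), of which 361 (3.2%) had higher and 531 (4.71%) had lower values with PPH. The median log2 difference over all genes was -0.02. The 95% interval of the difference lay within 1.5-fold in either direction for 95.9% of the genes and within 2-fold for 99.2%. A fitted difference beyond 1.5-fold was seen for 42 genes, 37 higher and 5 lower with PPH. Ranges of the groups did not overlap for 9 genes (0.0799%), 4 above vehicle and 5 below.

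The genes below are the 12 on each side of the pooled comparison with the lowest p, leaving out LOC, RGD, AABR and NEWGENE symbols. None passed the test, so their values describe these 17 kidneys. They were picked for a difference from these 5 vehicle arrays, which limits what their agreement across doses can show. On the lower side, 3 genes act on microtubules or in cell division. Ect2, the exchange factor that starts the cleavage furrow in cytokinesis, had a lowest value of 6.44, a median of 7.04 and a highest value of 7.43 log2 units in the low-dose kidneys, against 7.15, 7.37, 7.41, 7.51 and 8.01 in vehicle kidneys. The groups overlapped. The log2 difference was -0.47 ± 0.11 (SE), with an adjusted p of 0.31. Kif2c, a kinesin that takes microtubules apart at the centromere, ranged between 4.35 and 5.03 (median 4.57) with PPH, against 4.80, 5.09, 5.11, 5.18 and 5.23 with vehicle. Its log2 difference was -0.44 ± 0.09 (SE), adjusted p 0.157, and it passed the filter of 4.66 mainly through the vehicle arrays. Katnal1, a subunit like the microtubule-severing enzyme katanin, was at 5.58 to 5.91 (median 5.79) in low-dose kidneys, against 5.99, 6.03, 6.08, 6.12 and 6.16 in vehicle kidneys. All 12 low-dose arrays lay below all 5 vehicle arrays, with a log2 difference of -0.31 ± 0.06 (SE) and an adjusted p of 0.157. Jpt1, a microtubule-associated protein, stood on the other side at 0.33 ± 0.09 (SE), but its other probe set differed by 0.05 only.

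Slc6a8, the creatine transporter, ranged between 10.96 and 11.47 log2 units (median 11.29) in low-dose kidneys, against 11.51, 11.61, 11.64, 11.78 and 11.91 in vehicle kidneys. The groups did not overlap, and the log2 difference was -0.40 ± 0.09 (SE) with an adjusted p of 0.266. A second Slc6a8 probe set gave -0.37. Gatm, whose enzyme makes the precursor of creatine in the kidney, was at 12.94 to 13.38 (median 13.16) with PPH, against 13.34, 13.34, 13.35, 13.50 and 13.51 with vehicle. Its log2 difference was -0.26 ± 0.06 (SE), adjusted p 0.31, and the groups overlapped at their edges. Slc2a2, the glucose transporter that passes reabsorbed glucose to the blood, was at 9.63 to 10.15 (median 9.84) with PPH, against 10.15, 10.15, 10.26, 10.42 and 10.54 with vehicle. The log2 difference was -0.44 ± 0.10 (SE), adjusted p 0.31.

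Vkorc1l1, a vitamin K epoxide reductase, had the lowest p of all genes. It ranged between 6.39 and 6.83 log2 units (median 6.60) in low-dose kidneys, against 6.81, 6.89, 6.92, 6.95 and 7.00 in vehicle kidneys. The overlap came from 1 low-dose array, that of rat PPH-214 at 1 mg/kg, and the log2 difference was -0.33 ± 0.06 (SE), 95% interval -0.45 to -0.20. Without that array the adjusted p was 0.036, the 1 call that leaving out any array gave in the pooled comparison. Lect2, a secreted chemotactic factor, had 4.90 to 5.44 (median 5.14) with PPH, against 5.41, 5.49, 5.72, 5.75 and 5.80 with vehicle, a log2 difference of -0.47 ± 0.09 (SE), adjusted p 0.157, with overlapping groups. The other lower-side genes were Sema4g, a semaphorin (-0.40), Phactr1, a regulator of actin and phosphatase (-0.38), Atn1, a transcriptional corepressor (-0.25), and Cpeb1, which binds polyadenylation signals in messenger RNA (-0.51).

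On the higher side the membrane protein gene Tm4sf20 had the largest log2 difference, 0.93 ± 0.18 (SE), with an adjusted p of 0.157. It ranged between 5.54 and 6.70 log2 units (median 6.11) in low-dose kidneys, against 4.52, 5.26, 5.36, 5.41 and 5.45 in vehicle kidneys. All 12 low-dose arrays lay above all vehicle arrays, and 1 vehicle array, of rat PPH-205, lay far below the other vehicle arrays. Slc45a3, a putative sugar transporter, was at 7.37 to 7.83 (median 7.62) with PPH, against 7.16, 7.17, 7.18, 7.32 and 7.41 with vehicle, a log2 difference of 0.35 ± 0.08 (SE). Tfrc, the transferrin receptor of iron uptake, differed by 0.25 ± 0.07 (SE), and its other probe set by 0.42.

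Among enzymes, Papss2, which makes the sulfate donor that sulfotransferases use, was at 8.32 to 8.75 log2 units (median 8.43) in low-dose kidneys, against 8.02, 8.13, 8.16, 8.20 and 8.28 in vehicle kidneys. The groups did not overlap, the log2 difference was 0.33 ± 0.08 (SE) with an adjusted p of 0.31, and the other probe set gave 0.23. Acadm, the medium-chain acyl-CoA dehydrogenase of fatty acid oxidation, was at 12.01 to 12.23 (median 12.12) with PPH, against 11.82, 11.87, 11.96, 11.99 and 12.04 with vehicle, a difference of 0.18 ± 0.05 (SE). Cyb5a, a microsomal electron carrier for desaturases and cytochrome P450 enzymes, differed by 0.19 ± 0.05 (SE). Both are small differences on abundant transcripts.

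Of the other higher-side genes, Trim16, a ubiquitin ligase, was at 5.11 to 5.84 log2 units (median 5.39) in low-dose kidneys, against 4.60, 4.63, 4.64, 5.15 and 5.35 in vehicle kidneys, a log2 difference of 0.56 ± 0.14 (SE). Cables1, which links cyclin-dependent kinases to other kinases, was at 6.13 to 6.87 (median 6.30) with PPH, against 5.80, 5.95, 6.01, 6.02 and 6.05 with vehicle. Its groups did not overlap (log2 difference 0.38 ± 0.10, SE), but a second and dimmer Cables1 probe set differed by 0.01. Tgfa, a ligand of the epidermal growth factor receptor, differed by 0.59 ± 0.16 (SE), Fam13c, whose vehicle mean of 4.43 lay below the filter value of 4.66, by 0.57 ± 0.13 and Cracdl by 0.49 ± 0.13. The smallest adjusted p of these 5 genes was 0.31.

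**Figure D1:**
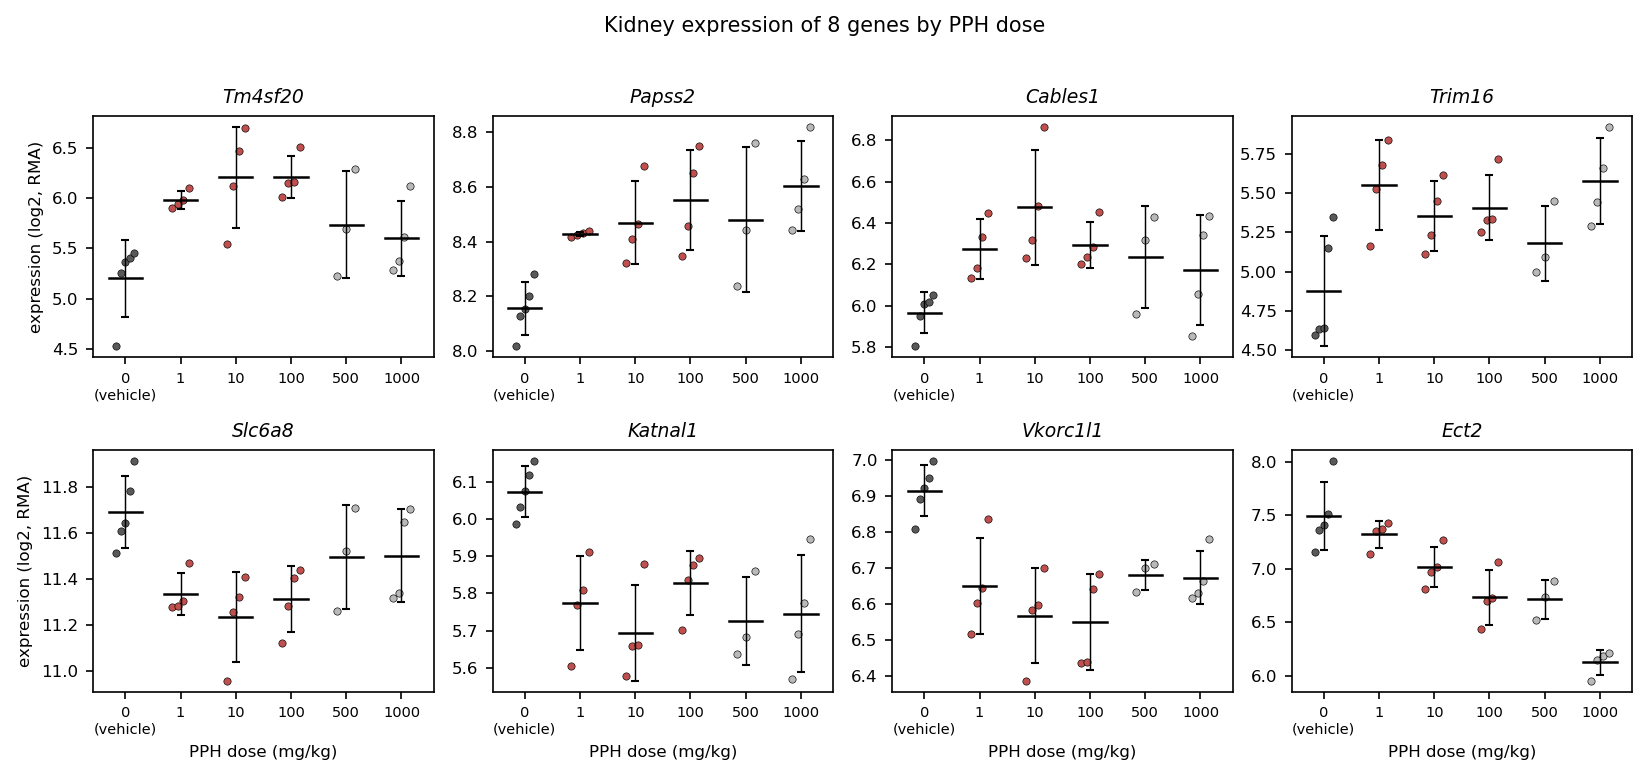
Kidney expression (log2, y axis) of 8 of the named genes by PPH dose (mg/kg, evenly spaced x axis); each point is 1 array, the bar is the group mean and the whisker 1 SD. Dark points are vehicle, red points the 3 low doses and light points 500 and 1000 mg/kg; the low-dose arrays of Tm4sf20, Papss2 and Cables1 all lie above vehicle and those of Slc6a8 and Katnal1 all below.

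**Figure D2:**
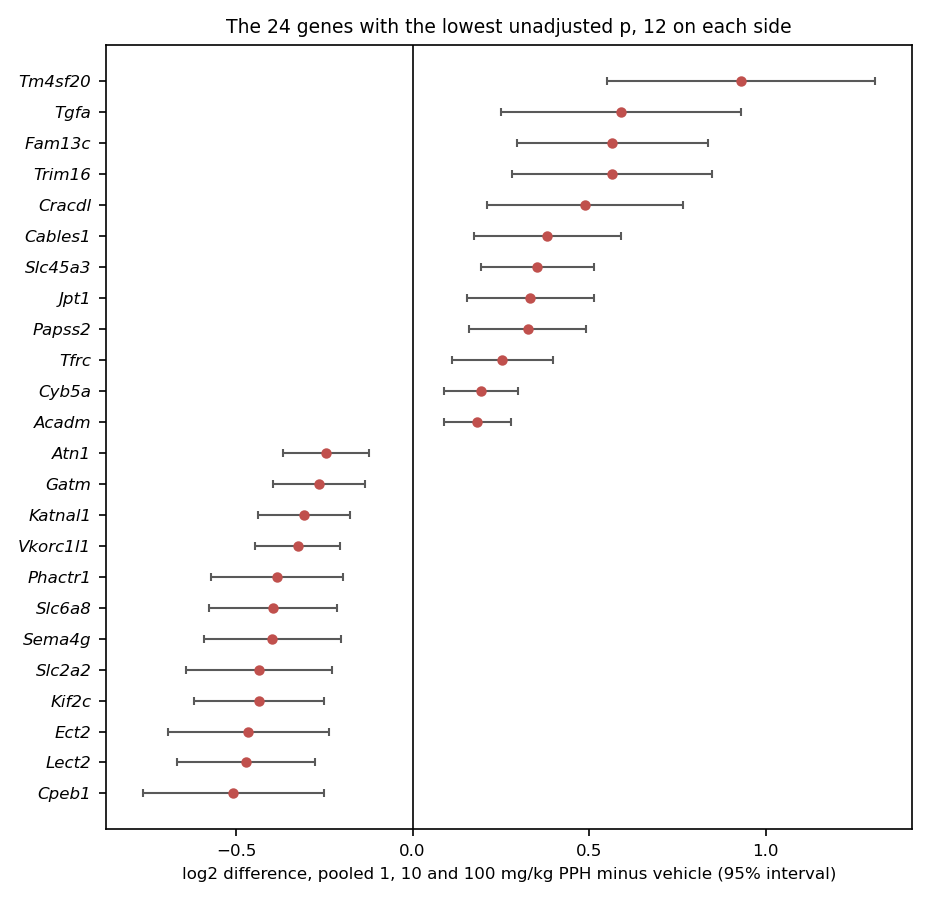
Log2 difference of pooled 1, 10 and 100 mg/kg PPH minus vehicle (x axis) for the 24 genes named above, 12 on each side. They had the lowest unadjusted p once symbols starting with LOC, RGD, AABR or NEWGENE were left out. Points are limma estimates and lines their 95% intervals. The estimates run between -0.51 for Cpeb1 and 0.93 for Tm4sf20, and none passed the adjusted threshold.

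For these 24 genes the PPH vehicle group was also set beside the 8 vehicle kidneys of the MCHM and crude MCHM sets, which likewise received corn oil. For 12 of the 12 higher-side genes the mean of the PPH vehicle arrays was the lowest of the 3 vehicle groups, which was so for 29.2% of all genes. For 10 of the 12 lower-side genes it was the highest, which was so for 32.9% of all genes. The low-dose mean lay inside the range of those 8 other vehicle arrays for all 12 genes of each side, against 88% of all genes. The PPH vehicle mean lay inside that range too for 8 of the 12 higher-side and 9 of the 12 lower-side genes, against 85% of all genes. Vkorc1l1 had a low-dose mean of 6.59 log2 units, and vehicle means of 6.91 in the PPH set, 6.42 in the MCHM set and 6.76 in the crude MCHM set. The beta-actin 5' minus 3' difference was -1.31 to -1.26 in the MCHM vehicle kidneys and -2.82 to -2.17 in the crude MCHM ones. In the PPH vehicle kidneys it was -3.07 to -2.34. The 24 genes were chosen on the PPH vehicle arrays, so the counts are descriptions. Differences between sets in RNA quality, time or handling were not tested.

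Each dose alone also gave 0 called genes (0%) against the same 5 vehicle arrays. An unadjusted p under 0.05 was reached by 324 genes (2.88%) at 1 mg/kg, 927 genes (8.23%) at 10 mg/kg and 834 genes (7.4%) at 100 mg/kg. At 10 mg/kg 3.26% of all genes had higher and 4.97% lower values at that mark, and at 100 mg/kg 2.27% had higher and 5.13% lower values. The smallest adjusted p was 1 at 1 mg/kg, 0.288 at 10 mg/kg and 0.123 at 100 mg/kg. At 1 mg/kg the genes with the lowest p were Jpt1 (0.48), Trim16 (0.68) and the homeobox gene Hoxc9 (0.61) on the higher side, and Otulinl (-0.53), the mitochondrial translation factor Taco1 (-0.40) and Katnal1 (-0.30) on the lower side. At 10 mg/kg they were Tm4sf20 (1.01), Tfrc (0.37) and Acadm (0.24), and Phactr1 (-0.55), Katnal1 (-0.38) and Lect2 (-0.57). At 100 mg/kg they were Tm4sf20 (1.01), the xylosylkinase gene Fam20b (0.33) and the potassium channel gene Kcnk1 (0.70), and Ect2 (-0.76), Kif2c (-0.60) and Vkorc1l1 (-0.36), all as log2 differences. Ect2 and Kif2c each had an adjusted p of 0.123 at 100 mg/kg, and of 0.028 without the vehicle rat PPH-208. Kif2c passed the filter mainly through the vehicle arrays, and its pooled low-dose mean of 4.64 log2 units lay below the filter value. The size of the Kif2c difference at 100 mg/kg, and its p-values there, are therefore uncertain.

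Differences among the 3 low doses do not involve the vehicle mean, though the vehicle arrays enter the shared estimate of spread behind their p-values. The F test among 1, 10 and 100 mg/kg called 0 genes (0%), with 303 genes (2.69%) at an unadjusted p under 0.05. The 6 genes with the lowest p were Smyd5, the macrophage marker Cd68, Cdkl4, the potassium channel subunit gene Kcnab1, the metallothionein gene Mt1 and Sprtn. Means of Mt1 were 5.87 log2 units at 1 mg/kg, 5.44 at 10 mg/kg and 6.14 at 100 mg/kg, with no common direction over dose. The slope per 10-fold dose also called 0 genes (0%), and 330 genes (2.93%) had an unadjusted p under 0.05, 2.12% with a negative and 0.808% with a positive slope. Ect2 had the lowest p on the negative side. It averaged 7.32 ± 0.13 log2 units at 1 mg/kg, 7.02 ± 0.19 at 10 mg/kg and 6.73 ± 0.26 at 100 mg/kg (SD, n = 4 each), a slope of -0.30 ± 0.07 (SE) with an unadjusted p of 0.000563 and an adjusted p of 1. Egflam (-0.25) and Smyd5 (-0.12) came next, and Drg1 (0.18), Cdkl4 (0.38) and Krt33b (0.13) had the lowest p among positive slopes.

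Cell cycle genes had lower mean values in low-dose kidneys than in vehicle kidneys. Of 29 genes on the list, 26 were tested, and 26 of 26 had a negative pooled difference, with a median of -0.19 against -0.02 for all genes. None was called, and 10 had a negative difference at an unadjusted p under 0.05, where 4.71% of all genes did. Mki67, the proliferation marker, was at 4.67 to 5.94 log2 units (median 5.54) in low-dose kidneys, against 5.73, 5.78, 6.08, 6.09 and 6.11 in vehicle kidneys. The groups overlapped, and the log2 difference was -0.50 ± 0.14 (SE) with an adjusted p of 0.488. Cdk1, the kinase that drives entry into mitosis, was at 6.19 to 7.38 (median 6.96) with PPH, against 6.99, 7.10, 7.28, 7.53 and 7.81 with vehicle, a difference of -0.46 ± 0.15 (SE). Top2a, the topoisomerase of dividing cells, was at 5.33 to 6.16 (median 5.80) with PPH, against 5.62, 5.69, 6.05, 6.12 and 6.51 with vehicle, a difference of -0.25 ± 0.13 (SE). The mean of the 26 genes was 5.75 to 6.29 log2 units (median 6.03) in low-dose kidneys, against 6.07 to 6.54 (median 6.27) in vehicle kidneys. These ranges overlapped, and the 26 genes were read from the same arrays.

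By dose, the cell cycle median difference from vehicle was -0.09 at 1 mg/kg, -0.17 at 10 mg/kg and -0.32 at 100 mg/kg, then -0.50 at 500 mg/kg and -0.92 at 1000 mg/kg. All 5 doses share the vehicle arrays. The genes with a negative difference at an unadjusted p under 0.05 were 0 of 26 at 1 mg/kg, 7 at 10 mg/kg, 14 at 100 mg/kg, 18 at 500 mg/kg and 24 at 1000 mg/kg. Of all genes 1.33%, 4.97%, 5.13%, 2.64% and 10.1% met that mark at the same doses in that order. At 1000 mg/kg 21 of the 26 were called lower, where 1.34% of all genes were. The slope over 1, 10 and 100 mg/kg, which does not use the vehicle mean, had a median of -0.15 per 10-fold dose, with 0 of 26 called. At an unadjusted p under 0.05, 11 slopes were negative and 1 was positive, against 2.12% and 0.808% of all genes. Mki67 averaged 5.67 ± 0.28 log2 units at 1 mg/kg, 5.51 ± 0.21 at 10 mg/kg and 5.18 ± 0.43 at 100 mg/kg (SD, n = 4 each), a slope of -0.25 ± 0.09 (SE), unadjusted p 0.0147 and adjusted p 1. Against pooled low MCHM the list median was -0.33, from -0.19 with PPH and 0.17 with MCHM, and 0 of 26 differences were called. In the liver of the PPH rats the list median was -0.01.

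**Figure D3:**
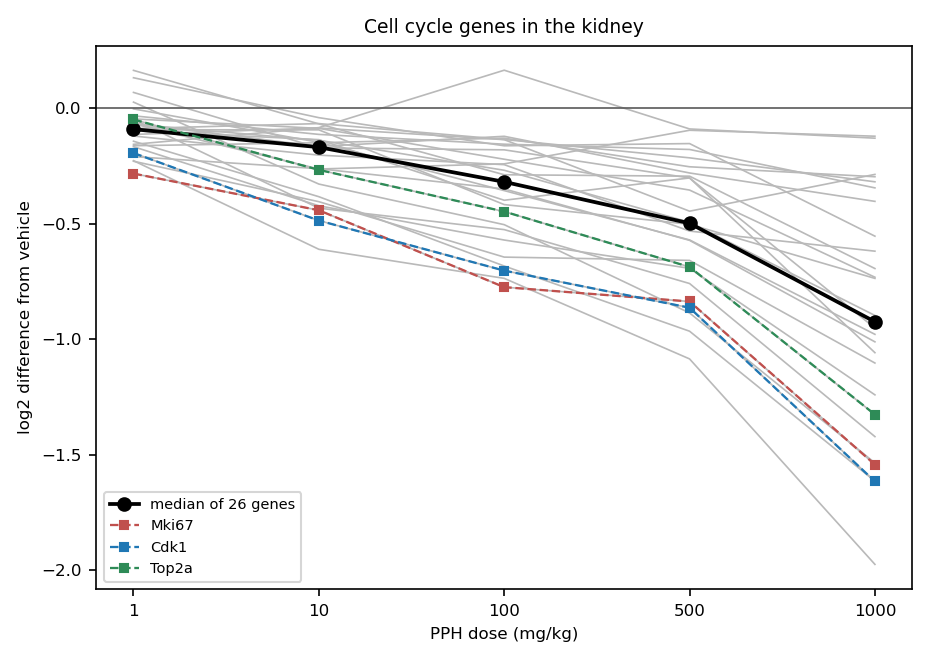
Log2 difference from vehicle (y axis) of 26 cell cycle genes at 5 PPH doses (mg/kg, evenly spaced x axis); grey lines are single genes, the black line their median, and Mki67, Cdk1 and Top2a are coloured. The median runs from -0.09 at 1 mg/kg over -0.32 at 100 mg/kg to -0.92 at 1000 mg/kg.

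Along the nephron, the distal convoluted tubule list stood lowest of the 34 lists with at least 3 genes tested. Its 3 tested genes all had a negative difference at an unadjusted p under 0.05, where 4.71% of all genes did, and the median was -0.37. Slc12a3, the sodium chloride transporter that thiazides block, was at 8.67 to 9.45 log2 units (median 9.08) in low-dose kidneys, against 9.19, 9.31, 9.36, 9.52 and 9.66 in vehicle kidneys, a difference of -0.36 ± 0.10 (SE), adjusted p 0.478. Calb1, a calcium-binding protein of that segment, was at 11.87 to 12.50 (median 12.31) with PPH, against 12.24, 12.36, 12.70, 12.84 and 13.03 with vehicle, a difference of -0.37 ± 0.15 (SE). Slc8a1, the sodium-calcium exchanger, named after its values were seen, differed by -0.48 ± 0.13 (SE), adjusted p 0.458. In all 3 genes the groups overlapped, and Pvalb, another marker of the segment, was below the filter. The list median was -0.29 at 1 mg/kg, -0.43 at 10 mg/kg and -0.50 at 100 mg/kg, and at 1000 mg/kg it was -0.40, with 0 genes called.

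Other segments gave smaller or mixed values. At an unadjusted p under 0.05, 3.2% of all genes were higher and 4.71% lower. The thick ascending limb list had 7 genes tested, 6 of them higher with PPH, a median of 0.22 and 0 at an unadjusted p under 0.05. Its Slc12a1, the transporter that loop diuretics block, differed by 0.42 ± 0.21 (SE), Kcnj1 by 0.27 and Umod by 0.17. Proximal tubule genes had a median of 0.02 over 15 genes, with 3 higher and 2 lower at an unadjusted p under 0.05. Among them Slc5a2, the sodium-glucose cotransporter, was lower at -0.29 ± 0.13 (SE), Slc34a1 differed by -0.11 and the endocytic receptor Lrp2 by -0.06. In the collecting duct principal cell list the water channel genes Aqp2 and Aqp3 and the vasopressin receptor gene Avpr2 differed by 0.06, 0.07 and 0.08, and 3 of 8 genes were lower at an unadjusted p under 0.05. Intercalated cell (-0.13), podocyte (-0.11), endothelium (-0.12), lymphocyte (-0.05), macrophage (0.01), fibroblast and matrix (0.00) and red blood cell (0.08) lists had the medians given, with 1 macrophage gene and 1 red blood cell gene higher at an unadjusted p under 0.05.

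Circadian clock genes differed in both directions. Of 16 tested, 5 were lower and 1 was higher at an unadjusted p under 0.05, and the median was -0.16. Of all genes 4.71% were lower and 3.2% higher at that mark. Bmal1, the activator of the clock loop, was at 5.64 to 6.79 log2 units (median 6.32) in low-dose kidneys, against 4.55, 5.47, 5.91, 6.01 and 6.22 in vehicle kidneys, a difference of 0.68 ± 0.25 (SE), adjusted p 0.575. Dbp, an output gene driven by that activator and named after its values were seen, was at 6.45 to 8.38 (median 7.31) with PPH, against 7.63, 7.64, 8.43, 8.80 and 9.29 with vehicle, a difference of -1.05 ± 0.34 (SE), adjusted p 0.518. The groups overlapped in both genes. At 1000 mg/kg, also against vehicle, the differences were -0.48 for Bmal1 and 0.27 for Dbp, opposite in sign to the low doses. Clock transcripts move through the day, the hour at which each kidney was taken was not given in the sources used here, and its part in these values was not tested.

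Fat cell genes were higher in some low-dose kidneys. The 7 tested genes had a median difference of 0.40, which was 0.06 at 1 mg/kg, 0.93 at 10 mg/kg and 0.01 at 100 mg/kg. Of the 7, 1 was higher and 0 lower at an unadjusted p under 0.05. Fabp4, the fatty acid binding protein of adipocytes, was at 6.08 to 11.62 log2 units (median 7.57) in low-dose kidneys, against 6.83, 6.87, 6.91, 8.01 and 9.15 in vehicle kidneys, a difference of 0.74 ± 0.75 (SE). The mean of the fat cell list was 7.27 to 9.63 (median 7.74) in low-dose kidneys, against 7.40 to 8.40 (median 7.47) with vehicle. High values were not particular to the low doses, since rat PPH-229 at 500 mg/kg had a list mean of 9.23. Rats PPH-218 and PPH-219 at 10 mg/kg, PPH-210 at 1 mg/kg and PPH-221 at 100 mg/kg were above every vehicle array in a second mean, over the 7 markers Adipoq, Plin1, Fabp4, Cfd, Lep, Cidec and Lipe. That mean holds Plin1 and Lep, which were below the filter, in place of Lpl and Pck1 of the list mean. By the list mean rat PPH-215 at 10 mg/kg (8.45) was also above the highest vehicle array (8.40), and it was not left out. Without the 4 arrays the fat cell median was -0.10. The arrays were left out for high fat cell markers, so a fall of that median was set in advance. The fatty acid synthesis median was -0.02 without the 4 arrays, against 0.12 with them. Cell cycle (-0.19) and distal convoluted tubule (-0.41) stayed near their values. Of 16 fatty acid synthesis genes 4 were higher at an unadjusted p under 0.05 with all arrays, where 3.2% of all genes were.

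Lists of foreign compound handling had 0 called members as well. At an unadjusted p under 0.05, 3.2% of all genes were higher and 4.71% lower. Of 18 conjugation enzyme genes, 5 were higher and 1 lower at an unadjusted p under 0.05, with a median of 0.09, and Gstm1, Gstm2 and Gstt1, all glutathione transferases, differed by 0.10, 0.21 and 0.08. Of 18 Nrf2 target genes, 4 were higher at an unadjusted p under 0.05, with a median of 0.04. Gclc, the catalytic subunit of glutathione synthesis, was at 13.01 to 13.87 log2 units (median 13.60) in low-dose kidneys, against 12.38, 13.01, 13.38, 13.45 and 13.57 in vehicle kidneys, a difference of 0.42 ± 0.15 (SE), adjusted p 0.57. Nqo1 differed by 0.21 and Hmox1 by -0.14. The organic anion and cation transport list had a median of 0.12 over 12 genes, with 2 higher at an unadjusted p under 0.05 and Slc22a6, Slc22a8 and Slc22a7 at -0.14, -0.16 and 0.55. Cytochrome P450 and xenobiotic receptor genes had a median of 0.01, and alcohol and aldehyde dehydrogenase genes one of -0.01.

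Fatty acid oxidation genes had a median of 0.05 over 25 genes, with 5 higher and 2 lower at an unadjusted p under 0.05. Of all genes 3.2% were higher and 4.71% lower at that mark. Ehhadh, the peroxisomal bifunctional enzyme, differed by 0.08 ± 0.07 (SE), Cpt1a by -0.02 and Cpt2 by -0.07. In the kidney injury list, where 15 of 17 genes were tested and Havcr1 was below the filter, the median was 0.07, and 2 genes were higher and 0 lower at an unadjusted p under 0.05. These were Fga, a fibrinogen chain (0.37 ± 0.12, SE, adjusted p 0.518), and Anxa2, a membrane-binding annexin (0.28 ± 0.10, SE, adjusted p 0.566), both named after their values were seen. Of the members named by rule, Lcn2 differed by 0.22 and Spp1 by 0.49 ± 0.36 (SE), neither at that mark. The cyclooxygenase, sodium and water balance list had 4 lower and 1 higher of 16 at an unadjusted p under 0.05, with a median of -0.13. Its Ptgs2, the inducible cyclooxygenase of the macula densa, was at 5.75 to 6.85 (median 6.18) with PPH, against 5.74, 6.47, 6.49, 7.06 and 7.12 with vehicle, a difference of -0.32 ± 0.18 (SE). Interferon (0.09), cholesterol (0.05), gluconeogenesis (0.05), hypoxia (0.00), respiratory chain (0.01), heat shock (-0.05), p53 and DNA damage (-0.03) and endoplasmic reticulum stress (-0.08) genes had the list medians given. So did the glucocorticoid target and metallothionein (0.06), immediate early (-0.01) and vitamin D, phosphate and calcium (-0.07) genes. The adrenal gland list and the macula densa and renin cell list had 2 genes tested each, with Ptgs2 among those of the macula densa.

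**Figure D4:**
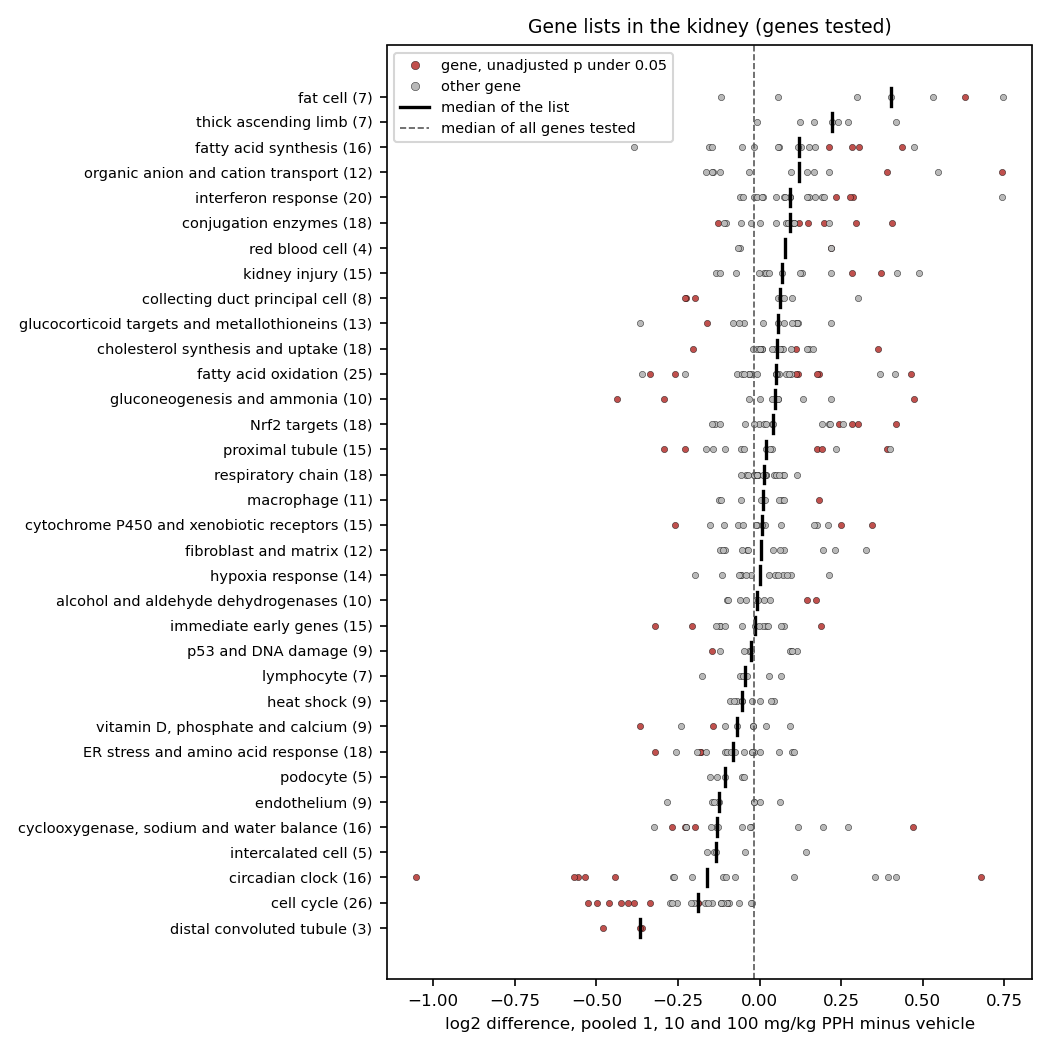
Log2 difference of pooled 1, 10 and 100 mg/kg PPH minus vehicle (x axis) for the genes of 34 lists with at least 3 genes tested, the number tested in brackets; red points have an unadjusted p under 0.05 and black bars are list medians. The dashed line is the median of all genes, -0.02, and the lists run between -0.37 (distal convoluted tubule) and 0.40 (fat cell).

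**Figure D5:**
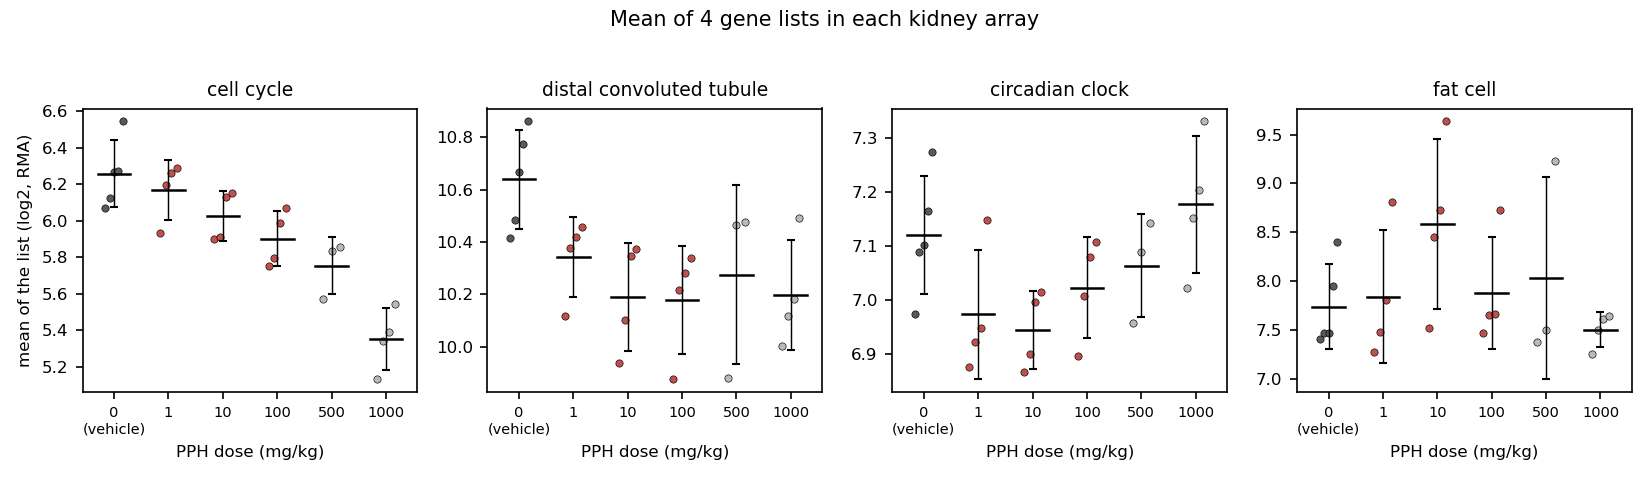
Mean log2 value of the tested genes of 4 lists (y axis) in each kidney array by PPH dose (mg/kg, evenly spaced x axis); points are arrays, bars group means and whiskers 1 SD. The cell cycle mean is lower at each higher dose, the distal convoluted tubule mean is below vehicle at all 5 doses, and single arrays stand high in the fat cell mean.

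The high doses set a scale for the low ones. At 1000 mg/kg, 4 arrays against the 12 pooled low-dose arrays, 150 genes were called (1.33%). Of these 44 rose (0.391%) and the others fell (0.941%) at 1000 mg/kg. The count was 49 without rat PPH-236, 69 without rat PPH-233 and 66 without rat PPH-234, all at 1000 mg/kg. Ehhadh was at 10.49, 10.80, 10.85 and 10.99 log2 units at 1000 mg/kg, against 10.02 to 10.38 (median 10.16) at the low doses. The groups did not overlap, and Ehhadh rose by 0.62 ± 0.07 (SE), adjusted p 0.000163. Gstm1 rose by 1.11 ± 0.15 (SE) and Enpp5, a nucleotide phosphodiesterase family member, by 0.47 ± 0.06, both with an adjusted p of 0.000316. Ccna2, the cyclin of S phase, was at 3.11, 3.57, 3.99 and 4.03 at 1000 mg/kg, against 4.56 to 5.65 (median 5.14) at the low doses, and fell by 1.45 on the log2 scale. All 4 values at 1000 mg/kg lay below the filter value of 4.66, so the size of that difference is uncertain. The cytokinesis genes Prc1 and Arhgap11a fell by 1.27 and 0.96, each with an adjusted p of 0.000293 like Ccna2. In all, 20 of 26 cell cycle genes fell at 1000 mg/kg relative to the low doses, where 0.941% of all genes did. Among them Ccna2 and Mki67 averaged below the filter value at 1000 mg/kg.

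At 500 mg/kg, where 3 kidneys were available, 0 genes were called against the pooled low doses (0%), and 514 (4.56%) had an unadjusted p under 0.05, 2.94% of all genes higher and 1.62% lower. Lect2 was at 5.61, 5.67 and 5.82 log2 units at 500 mg/kg, against 4.90 to 5.44 (median 5.14) at the low doses, a log2 difference of 0.54 ± 0.11 (SE), adjusted p 0.75. The aldo-keto reductase gene Akr1b10 (0.49) and Ehhadh (0.34) came next, and the linker histone genes H1f4 (-0.31) and H1f10 (-0.32) and the matrix gene Matn1 (-0.86) had the lowest p on the lower side. Cell cycle genes had a median of -0.30 with 0 of 26 called and 12 lower at an unadjusted p under 0.05. Set against vehicle, 7 of the 12 higher-side and 5 of the 12 lower-side genes of the pooled comparison were called at 1000 mg/kg (2.03% of all genes were) and 0 at 500 mg/kg. That comparison uses the same 5 vehicle arrays. Relative to the low doses, 2 of the 24 genes were called at 1000 mg/kg. Ect2 fell, at -0.90 ± 0.12 (SE). For the other one, Kif2c, no size is given, since its means of 4.04 at 1000 mg/kg and 4.64 at the low doses both lay below the filter value of 4.66.

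The kidney response was set against the liver response to the same doses, in mostly the same rats. At 10 mg/kg the kidney of rat PPH-215 had no liver array and the liver of rat PPH-216 no kidney array here. The difference of the low-dose effects was called for 6 of 10685 genes (0.0562%), all with a lower kidney effect. An unadjusted p under 0.05 was met on the higher side by 2.17% and on the lower side by 10.3% of genes. On the higher side Acadm (0.23), Omp (0.40) and Higd1b (0.51) had the lowest p. Gstt3, a glutathione transferase, had the largest difference of these 6, -0.72 ± 0.14 (SE), adjusted p 0.0376. In kidney it averaged 11.60 ± 0.06 log2 units with PPH and 11.46 ± 0.11 with vehicle, and in liver 9.92 ± 0.30 with PPH and 9.06 ± 0.20 with vehicle (SD, n = 12 and n = 5 in each tissue). The kidney effect was 0.15 ± 0.05 (SE) and the liver effect 0.86, which was called with an adjusted p of 0.00452. For Noc2l, Atg4b, Fastkd2, Chpf2 and Ubqln4 the kidney effect was between -0.13 and -0.07 and the liver effect between 0.15 and 0.38. With the replicate number as a block, 1 gene was called and it was none of these 6, whose adjusted p was then 0.0907 to 0.104. That fit used the kidney minus liver difference within each of the 22 rats with both arrays. Arrays without a partner were left out of it, so pairing is not its only change. Leaving out single kidney arrays gave between 0 and 17 calls, the most without rat PPH-225 at 100 mg/kg.

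Last, the low doses of PPH were set against 1, 10 and 100 mg/kg MCHM, 4-methylcyclohexanemethanol, each relative to its own vehicle. Of 11442 genes 0 were called (0%), with 1407 (12.3%) at an unadjusted p under 0.05 and a smallest adjusted p of 0.079. Slc6a8 differed by -0.60 ± 0.13 (SE) between the chemicals, from effects of -0.40 with PPH and 0.21 with MCHM. Slc45a3 differed by 0.54 ± 0.11 (SE), Papss2 by 0.60 ± 0.14 and Fam13c by 0.94 ± 0.21, while Erf, a transcriptional repressor, and Carmil1, a regulator of actin capping, differed by -0.43 and -0.46. The 95% interval of the difference lay within 1.5-fold for 88.5% of the genes. Papss2, Slc45a3 and Vkorc1l1 were among 6 genes called when arrays were weighted. Each chemical had its own vehicle group, so a difference between the sets and one between the chemicals cannot be told apart.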

How the data were processed

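Per the submitters' processing notes the authors processed the arrays with RMA, and the deposited log2 values of 31099 probe sets were used as they stood; the RMA version and which arrays were processed together were not given in the sources used here. Of the probe sets 20832 carried 1 gene symbol, for 14218 genes, 436 carried several and 9831 were unnamed here. The probe set with the highest kidney mean stood for a gene. A gene was tested where it exceeded the 40th percentile of kidney values (4.66) in at least 3 arrays of the fit. The column of 1 MCHM kidney whose values were out of register was left out, and 150 of 151 arrays were used.

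Models were fitted with limma 3.58.1 (lmFit, eBayes) in R 4.3.3 on the 24 PPH kidney arrays, all doses sharing 1 estimate of spread. The pooled effect is the mean of the 3 dose-group means minus vehicle. Tests were two-sided, p-values were adjusted by Benjamini and Hochberg's method across every gene of a fit with a threshold of 0.05, and the code was tested on simulated data. The tissue contrast used all PPH arrays, and the MCHM contrast the kidneys of both sets. Replicate numbers were taken as animals, since liver and kidneys were removed from each rat and carry the same number; over 22 pairs, deviations from group means correlated at a median r of 0.148, and 20 were over 0.1. Genes were named by rule: the 12 lowest p on each side of the pooled comparison, 3 a side for other comparisons (6 for the F test), the first 3 measured members of each of 36 lists, and called list members where described. Symbols starting with LOC, RGD, AABR or NEWGENE were left out of the rankings by p. The list members and lists were chosen with earlier results of these data known. Alternatives were no filter, the mean of a gene's probe sets, further quantile normalization, array weights, a variance trend, only the 17 arrays or all kidney arrays in the fit, other ways of pooling the doses, the actin difference as a covariate, the block and each array left out; the 2 with fat cell markers were chosen after seeing the data. The number of arrays limits the precision. The labels do not say outright that numbers are rats, and p-values measure the spread between these samples.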

Additional observations from a re-analysis of the deposited data

Results flagged for a closer look

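Among groups of 4 or 5 kidney arrays, 240 tests for an array far from the others of its group gave 16 such values, where chance gives about 1 in 20. For single genes it was 6 of 96. The Tm4sf20 value of vehicle rat PPH-205 was 4.5229 log2 units, against 5.2570 to 5.4530 in the other vehicle rats. At 1 mg/kg, rat PPH-214 had 5.9385 for Cracdl, 5.6573 for Tgfa and 5.5484 for Cpeb1, each nearer to vehicle than the other 3 rats of its group. Slc6a8 was at 11.4701 in rat PPH-212 at 1 mg/kg, and Sema4g at 5.5149 in rat PPH-215 at 10 mg/kg, both the highest of their group.

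Among list means, the fat cell mean of rat PPH-221 was 8.7286, against at most 7.6640 in the other rats at 100 mg/kg. At 10 mg/kg the fatty acid oxidation mean was 9.7828 in rat PPH-219, the glucocorticoid and metallothionein mean 8.4165 in rat PPH-218 and the lymphocyte mean 4.9663 in rat PPH-215. At 1 mg/kg rat PPH-210 was lowest in the gluconeogenesis mean (9.8230) and the respiratory chain mean (11.8614), rat PPH-214 in the endothelium mean (7.7682) and rat PPH-212 in the red blood cell mean (7.1331), and rat PPH-213 was highest in the conjugation enzyme mean (10.6019). Vehicle rat PPH-205 had the highest alcohol and aldehyde dehydrogenase mean, 10.4287.

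By the test of the difference between tissues, 6 genes were called with a lower response in kidney than in liver, and none of the 6 was called with the replicate number as a block (adjusted p 0.0907 to 0.104 in limma). The kidney minus liver differences were -0.7162 for Gstt3, -0.4684 for Noc2l, -0.4193 for Fastkd2, -0.4128 for Chpf2, -0.2885 for Atg4b and -0.2694 for Ubqln4.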

How the results depend on the processing

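The pooled count of 0 called genes was also 0 in each of the 14 alternatives that kept all arrays or left out a dose or the 4 arrays high in 7 fat cell markers, with 866 genes at an unadjusted p under 0.05 with fat cell markers as a covariate and 913 without those 4 arrays. Leaving out 1 array gave between 0 and 1 call, the 1 being Vkorc1l1. At 100 mg/kg that range was 0 to 2, and at 1 and 10 mg/kg, among doses, for the slope and at 500 mg/kg every alternative gave 0. The 24 named genes gave 742 values, none reversed, 1 past the threshold. They were picked for a low p on the arrays that these alternatives reuse, so a kept direction is little support. The highest adjusted p (limma) of a named gene over the settings lay between 0.597, as for Vkorc1l1, and 0.967, as for Acadm. For 1000 mg/kg against the low doses, where 1.33% of genes were called, array weights gave 0.835% and leaving out an array between 0.435% and 1.88%. For kidney against liver, no filter and quantile normalization each gave 0 calls, and leaving out an array between 0 and 17. The replicate block, which pairs the tissues of a rat and leaves out arrays without a partner, gave 1 call. Against MCHM, quantile normalization gave 1 call, array weights 6, and leaving out an array between 0 and 4. The cause of these shifts was not tested.

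List medians moved by more than the spread of the vehicle arrays' list mean in 17 of 1054 values. The fat cell median was -0.03 with the covariate and -0.10 without those 4 arrays. Both settings were built on fat cell markers, so a fall of that median was set in advance. The cell cycle median stayed between -0.25 and -0.13, and that of the distal convoluted tubule between -0.46 and -0.31. The number of arrays limits the precision.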
